A study of Mus musculus with 32 samples.

Results

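Translation initiation factors are the proteins that bring the ribosome to the start codon of an mRNA, and their mouse genes carry the symbols Eif1 to Eif6. The probes described here are those of the array whose gene symbol begins with Eif and a digit from 1 to 6, without the Argonaute genes formerly named Eif2c and without Eif2s3y. There are 69 such probes with 49 symbols, of 25697 probes and 18138 symbols on the array, and the rule uses the symbols alone. By current names the 49 symbols stand for 46 genes, since a few genes appear under an older symbol too (Eif3eip is Eif3l, Eif3s1 is Eif3j1, Eif3s4 is Eif3g, Eif3s6 is Eif3e, Eif3s8 is Eif3c, Eif3s10 is Eif3a, Eif4el3 is Eif4e2 and Eif1ay is Eif1ax).

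The RNA came from the dorsal frontal cortex (FCtx) of 32 female F1 mice of the inbred strains C57BL/6J and FVB/NJ, 20 ethanol-treated and 12 untreated controls, each hybridized to 1 Illumina MouseRef-8 v2.0 array. The labels give the cross in 1 direction, the methods speak of reciprocal crosses, and the age of the mice is not in the labels. Ethanol-treated mice had a choice of water or 20% ethanol in daily sessions of limited length for 20 days. Chips 1 and 2 held 8 ethanol-treated mice each, chip 4 held 8 controls, and chip 3 held 4 of each, with the ethanol-treated mice at its odd positions and the controls at its even positions. Treatment therefore cannot be told apart from the chip on chips 1, 2 and 4, nor from odd or even position on chip 3.

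In initiation, eIF2 carries the first tRNA to the small ribosomal subunit, eIF3 holds the subunit ready, and eIF4E, eIF4G and eIF4A bind the cap of the mRNA and unwind its leader. The factors eIF1, eIF1A and eIF5 then set the start codon. Cells adjust the rate mainly at a pair of steps, the phosphorylation of eIF2 by its kinases, which blocks its recycling by eIF2B, and the binding of eIF4E by the 4E-binding proteins, which the mTOR kinase releases. In neurons both steps are known for their part in lasting synaptic change and memory.

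Each probe is an oligonucleotide matched to 1 stretch of a transcript, and the first 30 bases of those on which the results below turn are given here 5′ to 3′ from the deposited annotation. They are named by the first base of the probe in the transcript the file assigns to it. Eif4g2 and Eif5a are shown because their probes gave unlike results, Eif3i because 2 of its 3 probes overlap and went against the other on chip 3, and Eif3s4 with Eif3g as nearly the same probe under a pair of symbols. Capitals mark the bases that a probe shares with its overlapping partner.
Eif4g2, base 1672: ccagctacaaggacagtcgaaggatatgcc
Eif4g2, base 3480: ttcttaactgtaattgatggttgttgccgt
Eif5a, base 122: aggcagcagttgggctcgcggcgagcggac
Eif5a, base 1004: tggtaaatggtcttgtgccctttatcctac
Eif3i, base 512: tcggggagtgcgtcatcgcaggccacgaga
Eif3i, base 1005: cgagtttgaggcctaagttCTGGGTCTCCA
Eif3i, base 1024: CTGGGTCTCCATCCACAACAGAGAAGCTGC
Eif3s4, base 862: cCAAGGGTTTTGCTTTTATCAGCTTTCACC
Eif3g, base 864: CAAGGGTTTTGCTTTTATCAGCTTTCACCG

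Overlapping probes give a measure of how well 2 readings of nearly the same target agree. The Eif3s4 and Eif3g probes share 49 bases, and their differences between ethanol-treated mice and controls were -0.10 and -0.06 on the log2 scale. For the Eif2b5 probes from bases 2258 and 2260, which share 48 bases, these differences were -0.01 and 0.03. The Eif3i probes from bases 1005 and 1024 share 31 bases and gave -0.01 and -0.05. Within these 3 pairs the gap between the probes varied over the 32 arrays with an SD of 0.11, 0.14 and 0.13. A shift well below that size on 1 array therefore lies within what separates near-identical probes.

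The deposited signal of a probe is the mean over its beads, and the standard error over beads of the tested Eif probes had a median of 4.93% of the signal. A probe counted as detected on an array at a detection p-value below 0.01, with 9480 to 11544 probes per array passing that limit. The array of control mouse 66 on chip 4 had the fewest. The median signal of an array lay between 146 and 168 in the chip 4 controls and between 166 and 203 on all other arrays. Signals were variance-stabilized and quantile-normalized to a log2 scale, and limma was run on the 10187 probes that 24 or more of the 32 arrays detected. Of the cell type lists, all 10 oligodendrocyte, 9 microglia and 5 endothelial genes listed were tested, whereas 5 of 10 cortical neuron genes were, with Snap25, Rbfox3 and Nefl among those not tested. No choroid plexus gene was tested. At 1% over all arrays, 2 of the 5 cortical neuron genes and 1 of 7 astrocyte genes differed between ethanol-treated mice and controls. The other lists held 0 such genes, and 8.22% of all tested probes passed. Median differences over the tested genes were -0.09 for the cortical neuron list and 0.05 for the astrocyte list. In a piece of tissue, fewer cells of a type and less RNA per cell cannot be told apart.

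Of the 69 Eif probes, 51 passed the detection filter, for 36 of the 46 genes, and 49 of these were detected on all 32 arrays. The other 18 probes were left out, 12 of them detected on 0 arrays. No tested probe remained for 10 genes, among them Eif2s1, the eIF2 subunit that the eIF2 kinases phosphorylate, and Eif5b, whose product joins the ribosomal subunits. Eif5a2, Eif2ak4, Eif4e1b, Eif4ebp3, Eif3s6 and Eif1ay were also detected on 0 arrays, while Eif3h was detected on 6 and Eif4b on 7. When all probes of the array were tested without the filter, these 18 passed in none of the comparisons over all arrays, on chip 3, or of chips 1 and 2 against chip 4. The lowest adjusted p among them was 0.073 by limma, for Eif4b between chips 1 and 2 and chip 4.

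Over all 32 arrays, 5 of the 51 tested Eif probes (9.80%) differed between ethanol-treated mice and controls at an FDR below 1%, where 8.22% of all tested probes did (3.63% higher and 4.58% lower). Eif4g2, Eif5 and Eif5a were each higher by 1 probe, and Eif3i and Eif2b2 were lower by 1 probe each. The median difference of the 51 probes was 0.0099 on the log2 scale, beside -0.0033 for all probes tested. The median size of the difference regardless of sign was 0.045 for the Eif probes and 0.062 for all probes. The share of Eif probes called was thus near the background. Scaling the arrays to a common median instead moved the median of all probes to 0.054. It left 0 of the 51 passing at 1% by limma (0 higher and 0 lower), and 9 had an unadjusted p below 0.05. Of all probes 1.49% passed with that scaling, 91.4% of them higher.

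**Figure D1:**
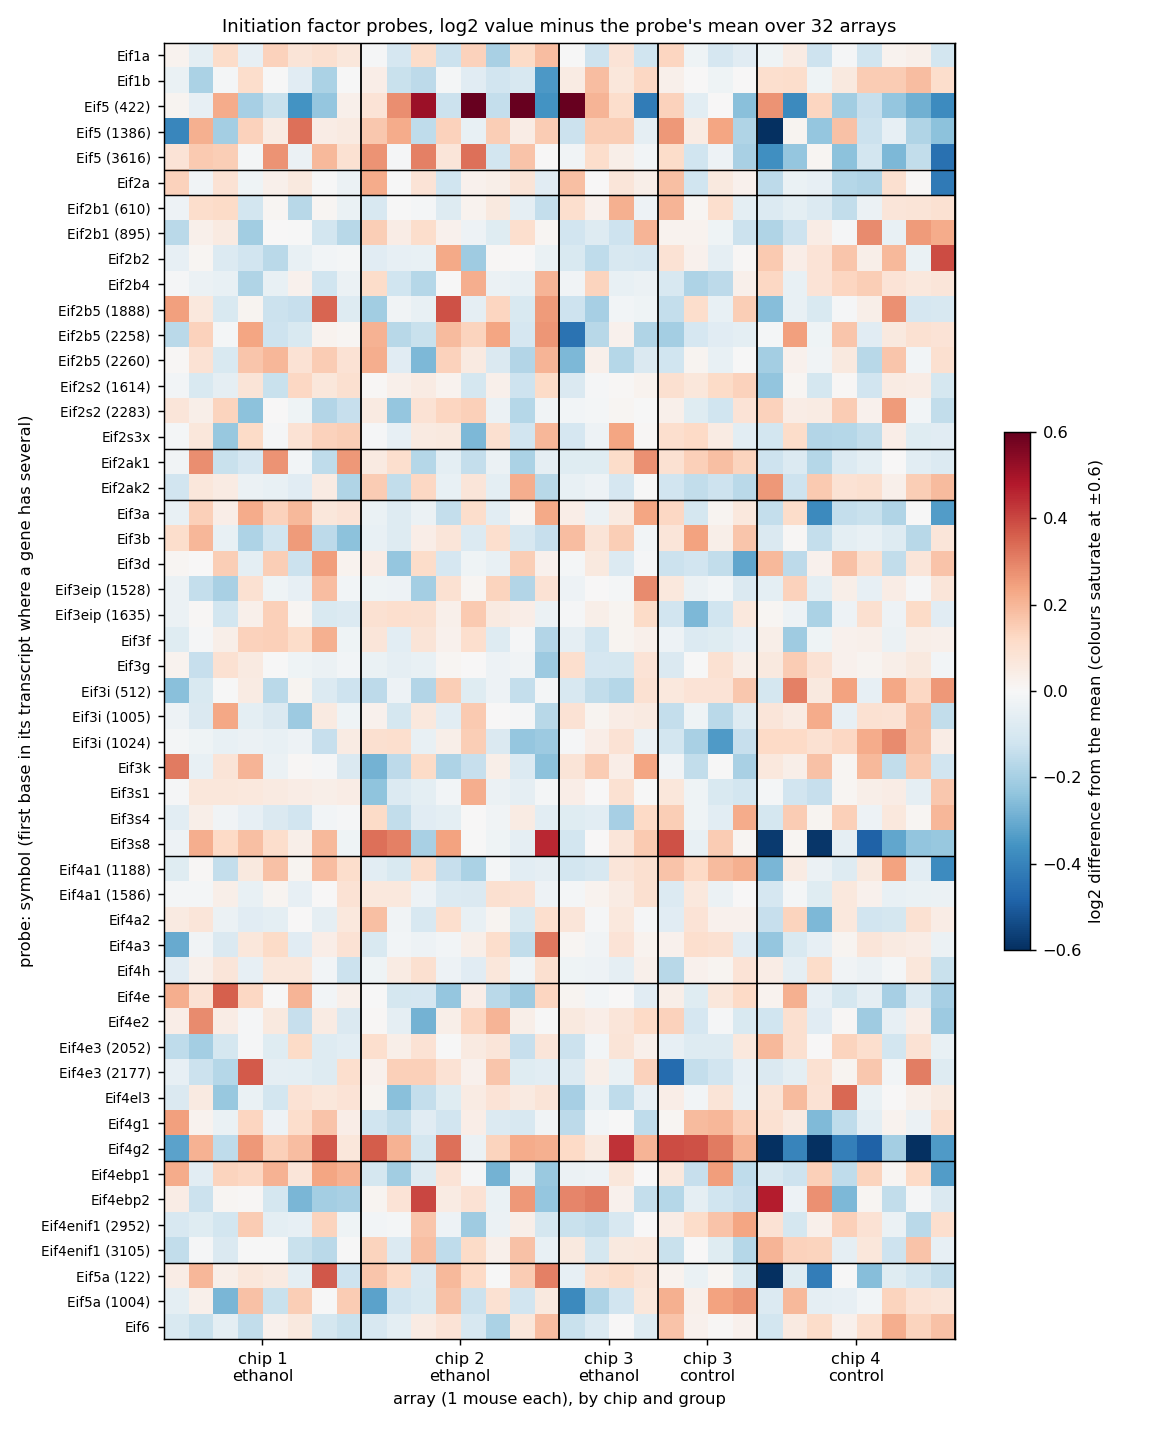
Log2 values of the 51 tested Eif probes (rows, grouped by role) on the 32 arrays (columns, 1 mouse each, grouped by chip and treatment), each shown as its difference from the probe's mean over all arrays, with red above and blue below the mean. Eif4g2 and Eif3s8 are blue on most chip 4 controls but not on the chip 3 controls, and most other rows show differences of the same size within groups as between them.

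Among the factors that set the start codon, Eif5, which makes eIF2 hydrolyse its GTP once the start codon is found, was higher in ethanol-treated mice by the probe from base 3616. It read between 12.07 and 12.51 in ethanol-treated mice of chips 1 and 2, and between 11.74 and 12.19 in chip 4 controls, with medians of 12.30, 12.31 and 11.94. On chip 3 the ethanol-treated mice read 12.16, 12.29, 12.22 and 12.17, and the controls 12.30, 12.06, 12.15 and 11.99. All 20 ethanol-treated mice were above the median of the controls, but the groups overlapped on chip 3, where the highest of the 8 mice was a control. The difference over all arrays was 0.27 (standard error 0.05, adjusted p = 2.9e-04 by limma), against 0.35 between chips 1 and 2 and chip 4 (adjusted p = 7.2e-05) and 0.08 on chip 3 (95% interval -0.07 to 0.23). The same probe was lower at even than at odd positions of chips 1, 2 and 4 by a difference of -0.18 (adjusted p = 0.0076).

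The other Eif5 probes did not pass. From base 1386 the difference was 0.14 (95% interval -0.01 to 0.28) and from base 422 it was 0.19 (-0.01 to 0.39). On chip 3 the latter had the largest standard error of the tested Eif probes, 0.15, with ethanol-treated mice at 10.98, 10.52, 10.42 and 9.90 and controls at 10.45, 10.25, 10.32 and 10.06. The controls lay within the range of the ethanol-treated mice. Even against odd positions of chips 1, 2 and 4 gave -0.32 for the probe from base 422, the lowest of the 51 tested Eif probes, without passing at 1%. The file marks this probe as belonging to 1 isoform of Eif5 and the probe from base 3616 as common to several.

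Eif1b, a close relative of the start codon factor eIF1, was lower on chips 1 and 2 than on chip 4 by a difference of -0.19 (adjusted p = 0.0037), with medians of 12.05, 11.97 and 12.18 on chips 1, 2 and 4. The order was the opposite within chip 3. The 4 ethanol-treated mice read 12.12, 12.26, 12.14 and 12.20, all above the 4 controls at 12.10, 12.07, 12.05 and 12.07, but the difference of 0.10 did not pass the test (95% interval -0.02 to 0.23). Over all arrays the difference was -0.11 (adjusted p = 0.049), short of the 1% threshold. Eif1a, whose product acts beside eIF1, differed by 0.05 (95% interval -0.03 to 0.13).

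Of the 10 tested probes for eIF2 and its recycling factor eIF2B, 1 passed over all arrays. Eif2b2, the beta subunit of eIF2B, read between 8.89 and 9.33 in ethanol-treated mice (median 9.06 on chip 1, on chip 2 and 9.01 on chip 3) and between 9.05 and 9.50 in controls. The chip 3 values were 9.02, 8.95, 9.01 and 9.01 with ethanol and 9.19, 9.13, 9.05 and 9.11 in controls. Every ethanol-treated mouse on chip 3 was below every control, and 1 of the 20 ethanol-treated mice was above the control median. The difference was -0.15 over all arrays (standard error 0.04, adjusted p = 0.0087), and it had nearly the same size on chip 3 (-0.13, 95% interval -0.25 to 0.00) and between chips 1 and 2 and chip 4 (-0.17, adjusted p = 0.012). The highest control, at 9.50, was mouse 66, and without it the difference was -0.12 (adjusted p = 0.023). Even against odd positions of the other chips gave 0.10 for Eif2b2 (adjusted p = 0.12), and with chip and position both in the fit the difference over all arrays was -0.03 (adjusted p = 0.95).

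The other eIF2 and eIF2B probes lay between -0.06 and 0.05 over all arrays. Eif2b5, the catalytic subunit of eIF2B, differed by 0.03, 0.03 and -0.01 by its 3 probes, from bases 1888, 2260 and 2258, and the group medians lay between 8.88 and 8.98, between 9.96 and 10.18, and between 9.74 and 10.08. Eif2b1 and Eif2b4, further subunits of eIF2B, differed by between -0.04 and -0.01. Eif2s3x, the subunit of eIF2 that binds GTP, differed by 0.05 (95% interval -0.04 to 0.14). The probes of Eif2s2, the beta subunit of eIF2, gave -0.06 from base 2283 and 0.00 from base 1614. On chip 3 the probe from base 1614 separated the groups, at 8.08, 8.16, 8.18 and 8.19 with ethanol and 8.26, 8.24, 8.28 and 8.30 in controls, while the difference of -0.12 did not pass (adjusted p = 0.21). From base 2283 the group medians lay between 9.26 and 9.33, and the chip 3 groups overlapped.

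The eIF2 kinases Eif2ak1, which responds to low heme, and Eif2ak2, which responds to double-stranded RNA, were tested by 1 probe each. Their differences over all arrays were 0.02 (95% interval -0.09 to 0.12) and -0.04 (-0.13 to 0.05). Eif2a, whose product is a separate protein that can also deliver the first tRNA, differed by 0.10 with an adjusted p of 0.087, and by 0.15 between chips 1 and 2 and chip 4 (adjusted p = 0.033).

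The 14 tested probes of eIF3 subunits, 11 symbols in all, held 1 probe lower over all arrays. For Eif3i, a subunit of the module of eIF3 that takes part in scanning, the probe from base 512 read between 10.43 and 10.82 in ethanol-treated mice of chips 1 and 2 and between 10.57 and 10.98 in chip 4 controls. On chip 3 it read 10.58, 10.53, 10.50 and 10.77 with ethanol and 10.74, 10.76, 10.76 and 10.84 in controls. Of the 20 ethanol-treated mice 1 was above the control median, and on chip 3 the groups overlapped through 1 ethanol-treated mouse, at 10.77. The difference was -0.19 over all arrays (standard error 0.04, adjusted p = 0.0013), -0.18 on chip 3 (adjusted p = 0.10) and -0.20 between chips 1 and 2 and chip 4 (adjusted p = 0.0050). The call between chips 1 and 2 and chip 4 was lost without control mouse 66 (-0.19, adjusted p = 0.014 by limma). It was also lost with median scaling (-0.07, adjusted p = 0.64). The probe was also higher at even than at odd positions of chips 1, 2 and 4 by 0.16 (adjusted p = 0.0078), and with chip and position both in the fit the difference over all arrays was -0.01 (95% interval -0.17 to 0.14).

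The overlapping Eif3i probes, from bases 1005 and 1024, went the other way on chip 3. The probe from base 1024 read 11.79, 11.84, 11.88 and 11.76 with ethanol and 11.69, 11.60, 11.46 and 11.66 in controls, with every ethanol-treated mouse above every control. The difference of 0.22 passed the 10% threshold set for chip 3 (adjusted p = 0.047). Chip 4 controls, however, read between 11.84 and 12.08, above all 4 chip 3 controls, and the ethanol-treated mice of chips 1 and 2 had medians of 11.76 and 11.79 between the control groups. The chip 3 controls were lower than the chip 4 controls by a difference of -0.34 (adjusted p = 0.0021). Chips 1 and 2 were lower than chip 4, at -0.18 (adjusted p = 0.0052), and all arrays together gave -0.05 (95% interval -0.15 to 0.05). The call between chips 1 and 2 and chip 4 was lost with normexp background (-0.18, adjusted p = 0.012 by limma) and with median scaling (-0.07, adjusted p = 0.65). The difference between the 2 effects, 0.39, passed at 1% (adjusted p = 0.0030), but not with median scaling (0.25, adjusted p = 0.41). The probe from base 1005 gave 0.15 on chip 3 (adjusted p = 0.12) and -0.08 between chips 1 and 2 and chip 4 (adjusted p = 0.24).

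Eif3s8 (Eif3c), the core subunit through which eIF3 binds eIF1 and eIF5, had the third largest difference over all arrays, 0.26, with an adjusted p of 0.012. Its chip 4 controls read between 8.88 and 9.48 with a median of 9.19, whereas the medians of all other groups lay between 9.50 and 9.58. On chip 3 the values were 9.35, 9.47, 9.53 and 9.62 with ethanol and 9.85, 9.42, 9.61 and 9.47 in controls, and the groups overlapped. Chips 1 and 2 were higher than chip 4 by 0.42 (adjusted p = 1.7e-04), chip 3 against chip 4 controls gave 0.43 (adjusted p = 0.014), and the chip 3 difference was -0.10 (95% interval -0.28 to 0.09).

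Eif3k, a small peripheral subunit, was higher on chip 3 by 0.22 (adjusted p = 0.051, past the 10% threshold), with ethanol-treated mice at 9.64, 9.71, 9.60 and 9.80 and controls at 9.54, 9.41, 9.56 and 9.37. The groups did not overlap there, yet chips 1 and 2 against chip 4 gave -0.08 and all arrays 0.00 (95% interval -0.11 to 0.11). Eif3a, the largest subunit, was higher on chips 1 and 2 than on chip 4 by 0.20 (adjusted p = 0.0083), against 0.05 on chip 3. That call was lost without control mouse 66 (0.18, adjusted p = 0.026), and with normexp background, median scaling or all probes of the array, at adjusted p of 0.012, 0.013 and 0.014. Eif3eip (Eif3l) gave 0.08 from base 1635 and -0.01 from base 1528, with group medians between 10.69 and 10.88 and between 10.34 and 10.38. Eif3b, Eif3d, Eif3f and Eif3s1 differed by 0.00, 0.04, 0.05 and 0.03 over all arrays.

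None of the 5 tested probes of the helicase eIF4A and its helper eIF4H passed over all arrays, and their differences lay between -0.03 and 0.03. Eif4a1 read between 12.66 and 12.85 on all 32 arrays by its probe from base 1586, which differed by 0.03 (95% interval -0.02 to 0.09). The Eif4a1 probe from base 1188 was lower on chip 3, with a difference of -0.18 (adjusted p = 0.087, past 10%). There the ethanol-treated mice read 9.40, 9.41, 9.58 and 9.60 and the controls 9.68, 9.63, 9.70 and 9.72, with no overlap, while chip 4 controls spread from 9.13 to 9.75 and covered both. Eif4a2, the form of the helicase found in most neurons, differed by 0.03 (95% interval -0.04 to 0.11), and Eif4a3, which sits in the exon junction complex, by 0.01 (-0.07 to 0.10).

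Eif4g2, also called DAP5, is a relative of the scaffold eIF4G that lacks the part binding eIF4E and serves initiation without the cap, and it had the largest difference of the Eif probes over all arrays. The probe from base 1672 had a median of 9.26 on chip 1 (8.78 to 9.47) and of 9.31 on chip 2 (8.99 to 9.46), all with ethanol, and of 8.65 in the chip 4 controls (8.26 to 8.89). On chip 3, ethanol-treated mice read 9.22, 9.15, 9.53 and 9.30 and controls 9.49, 9.48, 9.41 and 9.30. The chip 4 controls were thus the group that stood apart, and the chip 3 controls were no lower than the ethanol-treated mice beside them. Over all arrays the difference was 0.39, 1.31-fold (standard error 0.10, adjusted p = 0.0076), and all 20 ethanol-treated mice were above the control median. It was 0.66 between chips 1 and 2 and chip 4 (adjusted p = 2.5e-06), and -0.12 on chip 3 (95% interval -0.28 to 0.05).

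The difference of -0.77 between these 2 effects of Eif4g2 passed at 1% (adjusted p = 0.0013). Chip 3 controls were higher than chip 4 controls by 0.85 (standard error 0.10, adjusted p = 1.2e-04), more than the difference over all arrays and with no difference in treatment. The chip 3 controls were all at even positions, however, and those of chip 4 at both odd and even ones. On chip 4 this probe read 8.70, 8.69, 8.89 and 8.76 at even positions and 8.26, 8.28, 8.61 and 8.39 at odd ones. The part of position in the difference between the controls was not tested. With chip as a fixed block, where the estimate rests on chip 3, the difference over all arrays turned to -0.12 (adjusted p = 0.65), and with position added it was 0.10 (adjusted p = 0.85). Without control mouse 66 it was 0.38 (adjusted p = 0.015). With median scaling the difference over all arrays was 0.46 (adjusted p = 0.020) and that between the controls 0.98 (adjusted p = 0.0065). The other Eif4g2 probe, from base 3480, was detected on 16 of the 32 arrays and was not tested. Tested without the filter it gave -0.08 (standard error 0.04, adjusted p = 0.21).

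**Figure D2:**
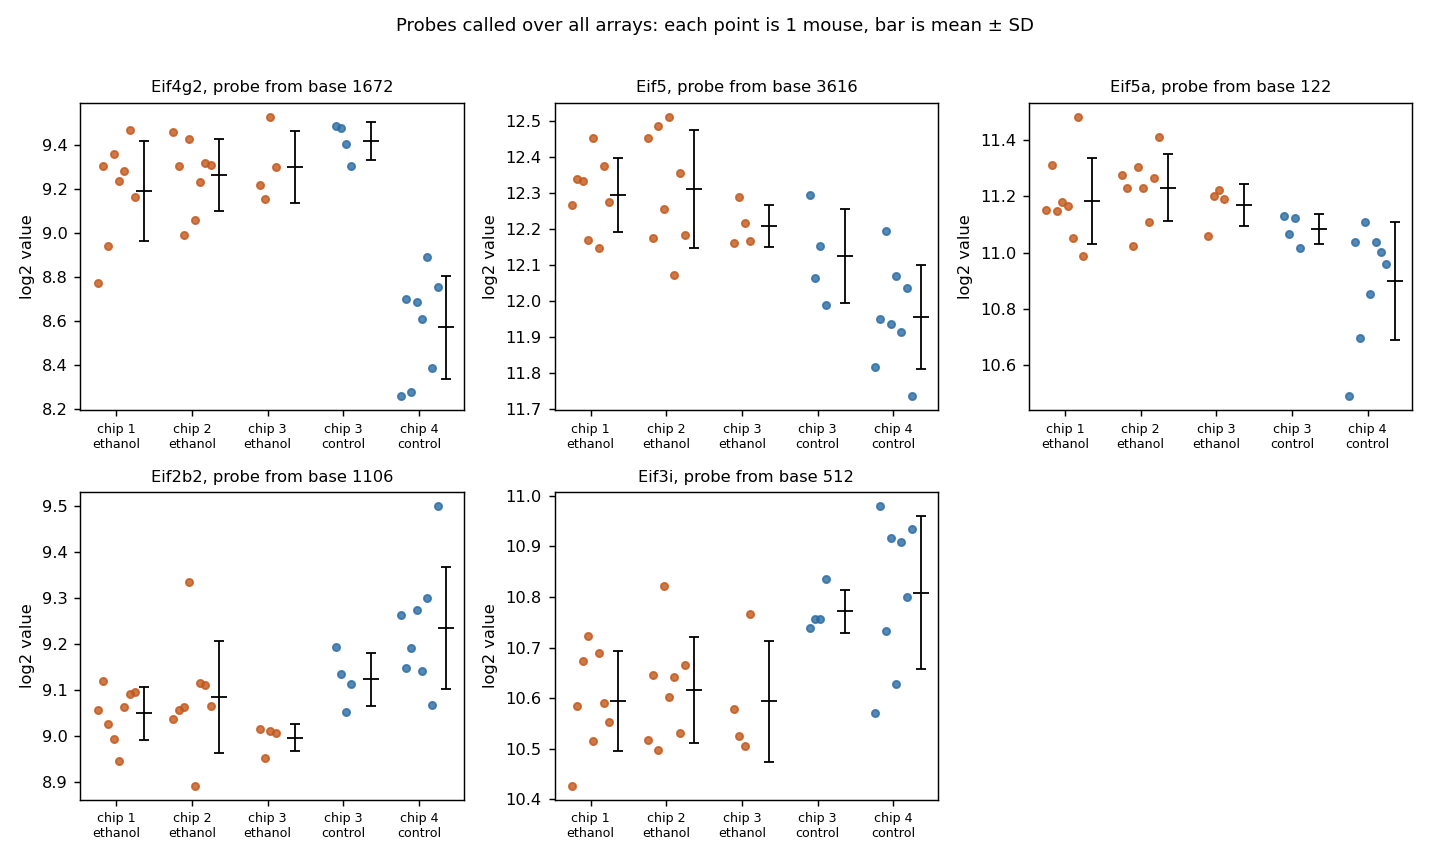
Log2 values of the 5 Eif probes that passed an FDR of 1% over all arrays, by chip and group, with 1 point for each mouse and the mean ± SD of the group as a bar (n = 8, 8, 4, 4 and 8), where the vertical axes do not start at 0. For Eif4g2 the 8 chip 4 controls lie between 8.26 and 8.89 and the 4 chip 3 controls between 9.30 and 9.49, level with the ethanol-treated mice.

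Eif4g1, the main scaffold that joins the cap-binding protein, the helicase and eIF3, was lower on chip 3, with a difference of -0.22 (adjusted p = 0.048). Its ethanol-treated mice read 9.29, 9.43, 9.44 and 9.29 and its controls 9.46, 9.63, 9.65 and 9.59. The chip 3 groups did not overlap, but the ethanol-treated mice of chips 1 and 2 had medians of 9.52 and 9.36, on either side of the 9.44 of the chip 4 controls, and the difference between chips 1 and 2 and chip 4 was 0.03 (95% interval -0.07 to 0.14).

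Eif4e, the cap-binding protein itself, was a dim probe, with signals between 159 and 339 on the 32 arrays. Its values on chip 3 were 8.02, 7.99, 8.01 and 7.94 with ethanol and 8.04, 7.93, 8.07 and 8.12 in controls, which overlapped. The difference was 0.04 over all arrays (95% interval -0.06 to 0.14) and -0.05 on chip 3 (-0.19 to 0.08). Eif4e2, whose product binds the cap and represses, gave 0.08 under its current symbol, with group medians between 8.15 and 8.27. Under the older symbol Eif4el3 it gave -0.11 (adjusted p = 0.063), with medians between 8.14 and 8.30. Eif4e3, a further cap-binding relative, gave 0.06 from base 2177 (medians between 8.99 and 9.18) and -0.04 from base 2052 (between 8.22 and 8.39).

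The 4E-binding proteins hold eIF4E away from eIF4G. Eif4ebp2, the form most abundant in brain, was higher on chip 3 by 0.24 (adjusted p = 0.082, past 10%), with ethanol-treated mice at 8.39, 8.41, 8.12 and 7.95 and controls at 7.92, 8.04, 7.98 and 7.96. Of the 4 ethanol-treated mice 3 were above all controls and 1 was among them. Chip 4 controls spread from 7.83 to 8.57 and the ethanol-treated mice of chips 1 and 2 from 7.82 to 8.49. The difference over all arrays was 0.04 (95% interval -0.10 to 0.17), and even against odd positions gave -0.21 (adjusted p = 0.017). Eif4ebp1 differed by 0.04 over all arrays (95% interval -0.07 to 0.15).

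Eif4enif1, which carries eIF4E into the nucleus and into RNA granules, was lower on chip 3 by the probe from base 2952. Ethanol-treated mice read 8.05, 8.03, 8.09 and 8.19 and controls 8.23, 8.29, 8.36 and 8.42, without overlap. The difference was -0.24 on chip 3 (adjusted p = 0.030), -0.09 over all arrays (adjusted p = 0.092) and -0.04 between chips 1 and 2 and chip 4 (95% interval -0.14 to 0.06). Even against odd positions of the other chips gave 0.00 for this probe (95% interval -0.09 to 0.10). The second probe, from base 3105, gave 0.11 on chip 3 (95% interval -0.03 to 0.25).

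Eif5a encodes the hypusine-bearing factor now known chiefly for its work in elongation and termination, and its probes moved apart. The probe from base 122 read between 10.99 and 11.48 in ethanol-treated mice of chips 1 and 2 and between 10.49 and 11.11 in chip 4 controls. On chip 3 it read 11.06, 11.20, 11.22 and 11.19 with ethanol and 11.13, 11.07, 11.12 and 11.02 in controls, and 3 of the 4 ethanol-treated mice were above all controls. The difference was 0.24 over all arrays (standard error 0.05, adjusted p = 0.0020), 0.31 between chips 1 and 2 and chip 4 (adjusted p = 0.0010) and 0.08 on chip 3 (95% interval -0.05 to 0.22).

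The Eif5a probe from base 1004 had the largest decrease of the Eif probes on chip 3. Its values there were 10.03, 10.22, 10.29 and 10.48 with ethanol and 10.62, 10.44, 10.65 and 10.67 in controls, so that all but 1 of the controls lay above every ethanol-treated mouse. The difference was -0.34 on chip 3 (standard error 0.09, adjusted p = 0.018), -0.14 over all arrays (adjusted p = 0.064) and -0.06 between chips 1 and 2 and chip 4 (95% interval -0.18 to 0.06). This probe was higher at even than at odd positions of the other chips by 0.19 (adjusted p = 0.0059). Eif6, which keeps the large ribosomal subunit from joining too early, differed by -0.12 over all arrays (adjusted p = 0.016) and by -0.13 both on chip 3 and between chips 1 and 2 and chip 4. On chip 3 its ethanol-treated mice read 10.09, 10.14, 10.22 and 10.14 and its controls 10.39, 10.24, 10.23 and 10.25, without overlap, while the other chips overlapped.

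**Figure D3:**
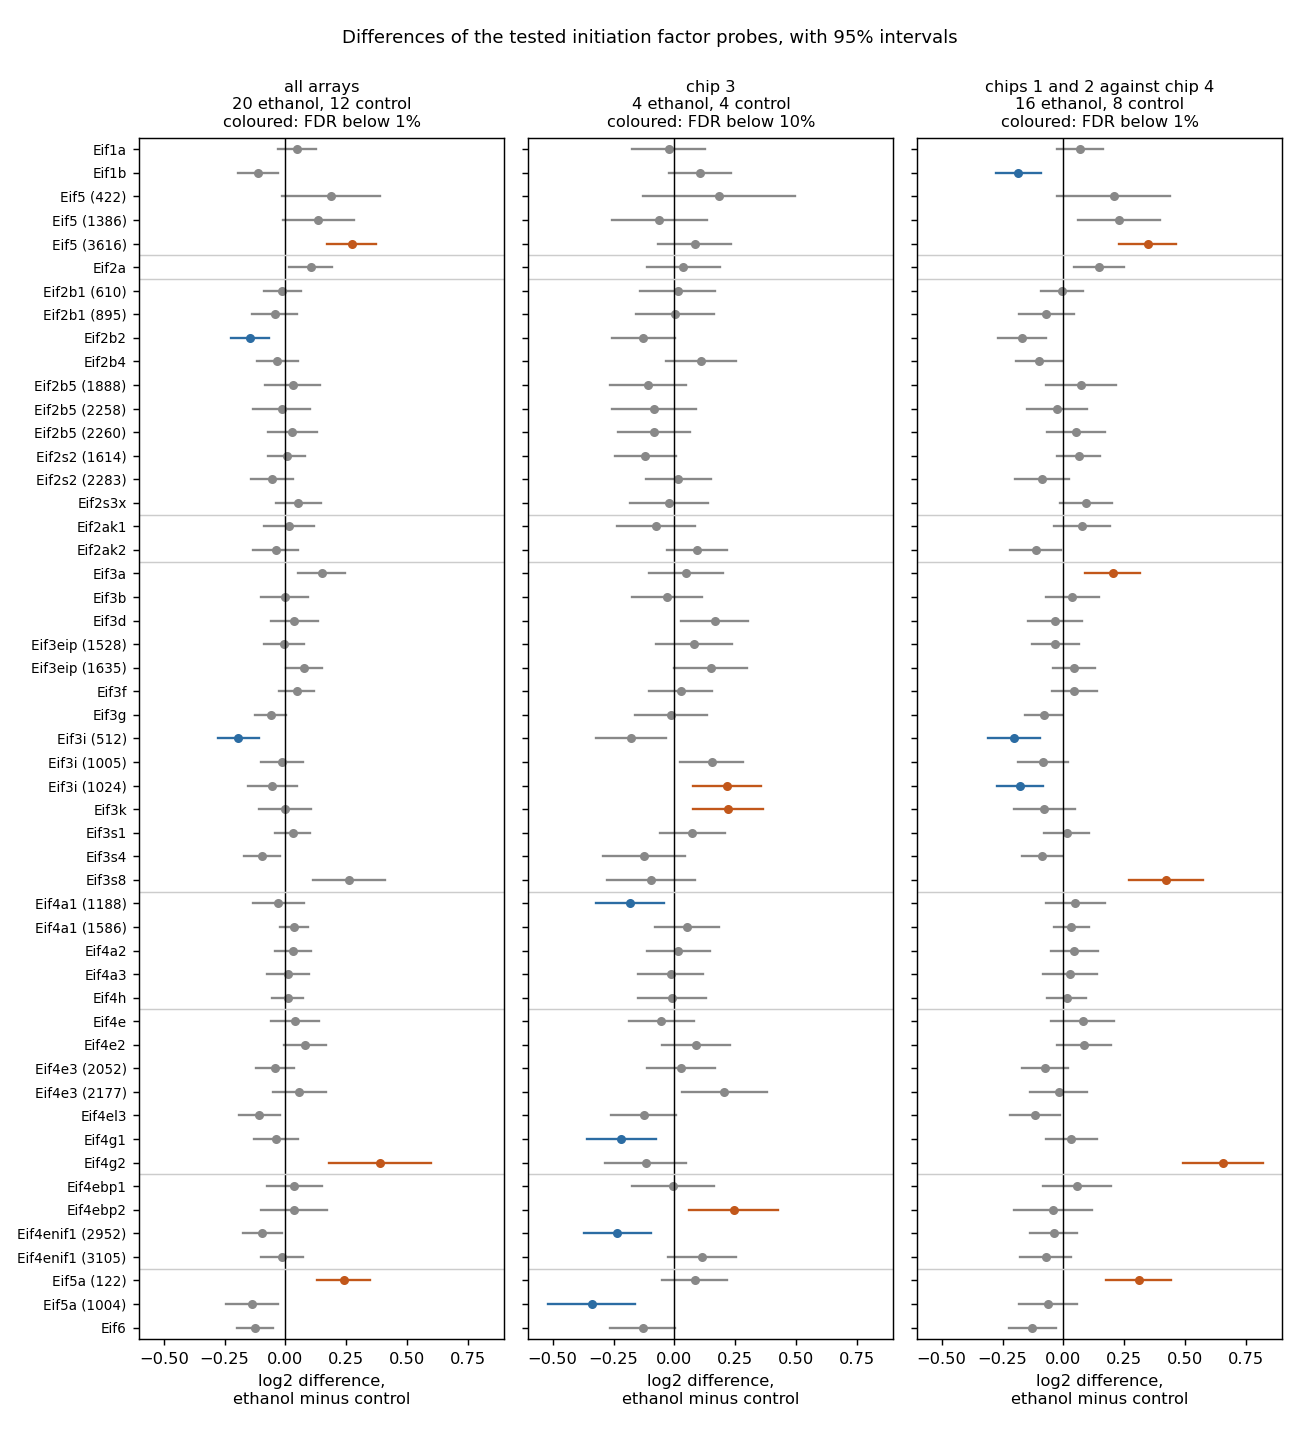
Difference between ethanol-treated mice and controls (log2, horizontal axis) of each of the 51 tested Eif probes with its 95% interval, over all arrays, on chip 3 and between chips 1 and 2 and chip 4, with probes that passed the threshold in orange (higher) or blue (lower). Most intervals cover 0 in all 3 panels, and the Eif3i probe from base 1024 is coloured on chip 3 and in the right panel in opposite directions.

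On chip 3 alone, 7 of the 51 probes (13.7%) passed an FDR of 10%, where 16.8% of all tested probes did (8.17% higher and 8.61% lower). Eif5a, Eif4enif1, Eif4g1 and Eif4a1 were lower and Eif3i, Eif3k and Eif4ebp2 higher, by 1 probe each, and in 12 of the 51 probes the values of the 4 ethanol-treated mice and the 4 controls did not overlap (23.5%, beside 15.2% of all tested probes). With median scaling the split was 0 higher and 5 lower, where 11.9% of all probes passed and 26.2% of these were higher. On the same chip the mean level over the genes of the cortical neuron list was between 12.05 and 12.18 with ethanol and between 12.28 and 12.43 in controls, and that of the olfactory bulb list between 9.16 and 9.45 and between 8.23 and 8.93. The astrocyte list (10.68 to 10.78 against 10.52 to 10.60), the interneuron list (11.81 to 11.83 against 11.61 to 11.66) and the endothelial list (9.205 to 9.393 against 9.131 to 9.196) did not overlap either. The oligodendrocyte list overlapped (10.03 to 10.23 against 10.15 to 10.88), with a median difference of -0.37 over its genes. The striatum, microglia and blood lists overlapped too. In chip 4 controls the cortical neuron list ran from 12.03 to 12.34 and the olfactory bulb list from 8.08 to 9.80. The astrocyte, interneuron and endothelial lists ran there from 10.49 to 10.78, 11.65 to 11.91 and 9.178 to 9.337. Each of these ranges overlapped both chip 3 groups. The part of these levels in the chip 3 differences was not tested.

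Leaving out each of the 8 mice in turn, the Eif5a probe from base 1004 and the Eif4enif1 probe passed in all 8 fits. The Eif3i and Eif4g1 probes passed in 5, Eif3k in 4, and Eif4a1 and Eif4ebp2 in 2 each. Between chips 1 and 2 and chip 4, 8 probes (15.7%, beside 11.8% of all probes, 5.98% higher and 5.87% lower) passed at 1%. Eif4g2, Eif3s8, Eif5, Eif5a and Eif3a were higher there, and Eif1b was lower, as was Eif3i by 2 probes. With median scaling the split was 4 higher and 0 lower, the median of all probes moved to 0.090, and 5.96% of all probes passed, 98.4% of them higher.

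**Figure D4:**
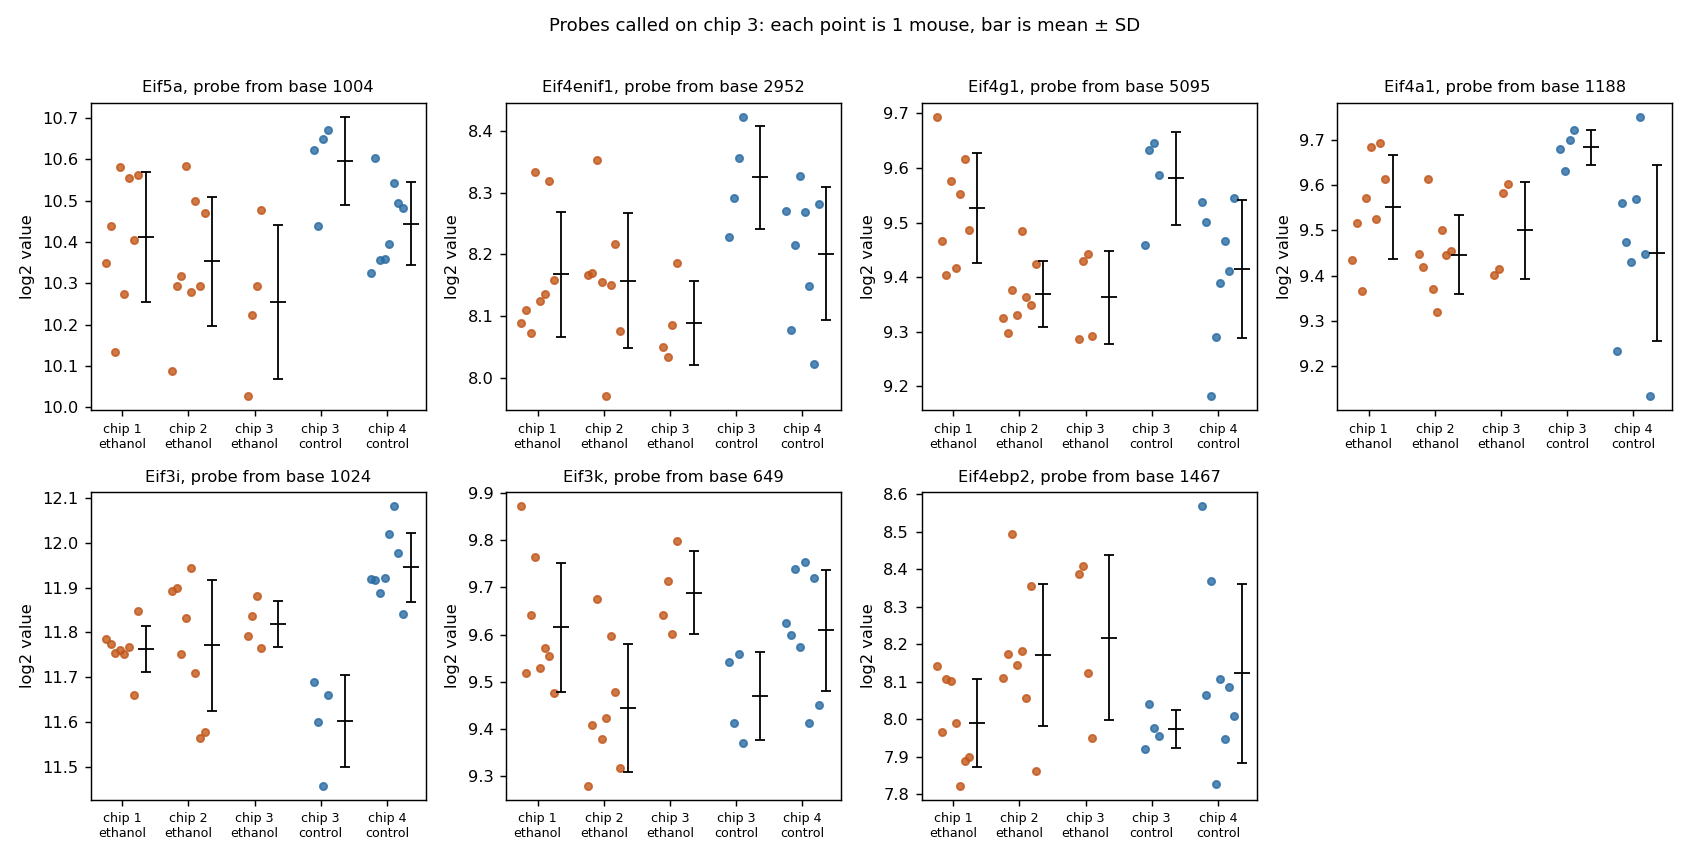
Log2 values of the 7 Eif probes that passed an FDR of 10% on chip 3, by chip and group, with 1 point for each mouse and the mean ± SD of the group as a bar (n = 8, 8, 4, 4 and 8), where the vertical axes do not start at 0. Within chip 3 the groups separate or nearly so, whereas the ethanol-treated mice of chips 1 and 2 and the controls of chip 4 overlap for each probe.

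Chip 3 and the other chips have no array in common, so the signs of their differences can be set side by side. Of the 51 Eif probes 20 (39.2%) had the same sign in both, beside 50.9% of all 10187 probes. Of the 8 probes called between chips 1 and 2 and chip 4, 4 had the same sign on chip 3 (all probes called there: 51.4%), namely Eif3a, Eif5, Eif5a and the Eif3i probe from base 512. Of the 7 called on chip 3, 2 (28.6%, beside 57.5% of all probes called there) had the same sign between the other chips, the Eif5a probe from base 1004 and Eif4enif1. The test of the difference between both effects passed at 1% for 2 of the 51 probes (3.92%, beside 3.29% of all probes, 1.67% higher and 1.62% lower), which were Eif4g2 and the Eif3i probe from base 1024. Between the chip 3 and chip 4 controls the same 2 probes passed (3.92%, beside 4.14% of all probes, 2.46% higher and 1.68% lower). These control arrays are also part of the test of the difference between both effects, so the 2 results are not independent. The chip 3 controls were all at even positions.

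Even against odd positions on chips 1, 2 and 4, where treatment does not vary within a chip, 4 of the 51 probes (7.84%) passed at 1%, beside 3.56% of all probes (1.79% higher and 1.78% lower). They were the Eif5 probes from bases 1386 and 3616, Eif3i from base 512 and Eif5a from base 1004. The difference was 0.26 for Eif5 from base 1386 and had the opposite sign, -0.18, from base 3616. With normexp background correction or with median scaling 0 of these passed by limma, with 17 and 9 probes at an unadjusted p below 0.05. Of all probes 2.37% and 0% passed with these settings. Chips 1 and 2, both with ethanol, differed at 1% in 0 of the 51 probes by limma, with 8 at an unadjusted p below 0.05, beside 0.00982% of all probes called.

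With chip as a fixed block, 0 of the 51 probes passed at 1% by limma, beside 0.216% of all probes (0.137% higher and 0.0785% lower), and 10 had an unadjusted p below 0.05. When the fit also held position, 0 passed by limma, beside 0.0196% of all probes, and 4 had an unadjusted p below 0.05. As a random block in limma, chip left 0 passing as well, beside 0.805% of all probes, with 13 at an unadjusted p below 0.05. The difference of Eif5 was then 0.23 (adjusted p = 0.023) and that of Eif3i -0.19 (adjusted p = 0.027).

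Several tested probes were available for 12 genes, and in 7 of these the probes did not all have the same sign over all arrays. Eif5a showed the widest gap, with 0.24 and -0.14. Within chip 3 the Eif5a probes gave 0.08 and -0.34, and between the other chips 0.31 and -0.06. Eif5 was the gene with several probes that all pointed up over all arrays, at 0.14, 0.19 and 0.27, although its probe from base 1386 gave -0.06 on chip 3. The 3 probes of Eif3i were all negative over all arrays, and on chip 3 the overlapping pair was positive and the probe from base 512 negative.

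**Figure D5:**
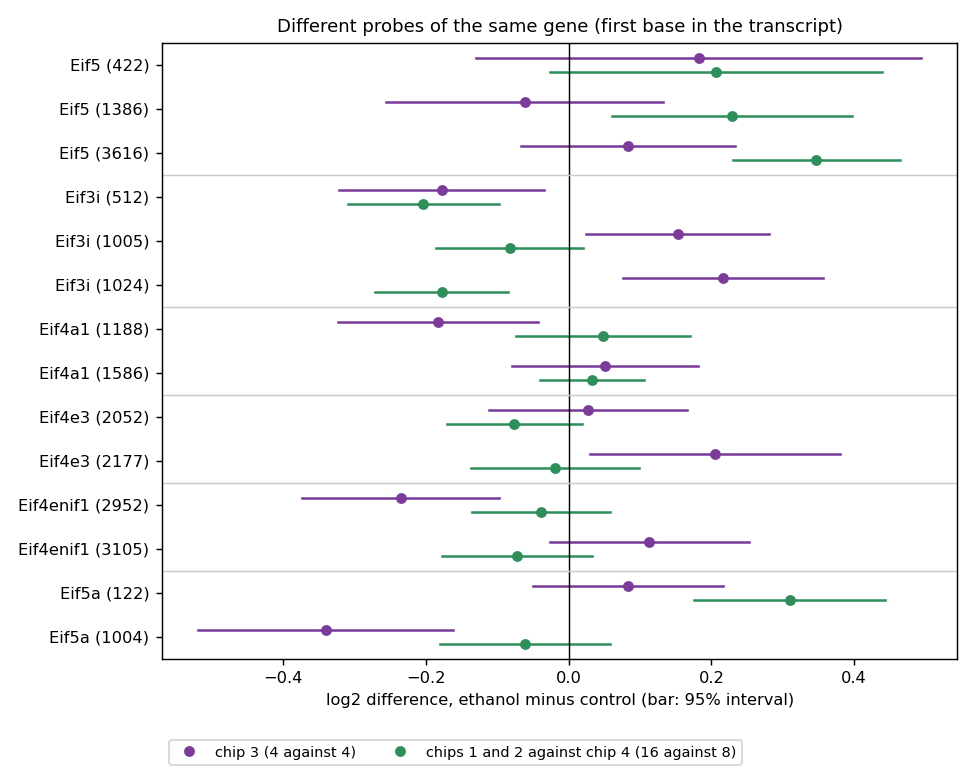
Differences between ethanol-treated mice and controls (log2, with 95% intervals) for 6 Eif genes with several tested probes, on chip 3 (purple) and between chips 1 and 2 and chip 4 (green), with each probe named by its first base in the transcript. The Eif5a probes lie at 0.08 and -0.34 on chip 3, and the Eif3i probe from base 512 is negative on chip 3 while those from bases 1005 and 1024 are positive.

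Beyond the Eif genes, a list of elongation and release factors and of regulators of initiation held 49 symbols, of which 35 were tested by 51 probes. Over all arrays 4 of these probes were higher and 2 lower at 1% (11.8%, beside 8.22% of all probes), with a median difference of 0.01. With chip as a fixed block 0 of the 51 passed by limma, beside 0.216% of all probes, and 5 had an unadjusted p below 0.05. With position in that fit too 0 passed, beside 0.0196% of all probes, and 8 had such a p. Eef2, which moves the ribosome along the mRNA, was higher by all 3 of its probes, at 0.40, 0.48 and 0.56, and on chip 3 these gave 0.17, 0.20 and 0.14 without passing. Eef1a2, the neuronal form of the factor that brings aminoacyl-tRNA to the ribosome, was higher by 1 of 3 probes, at 0.40 over all arrays (adjusted p = 0.0044) and 0.41 on chip 3 (adjusted p = 0.011), while the others gave 0.03 and 0.09 without passing. Ddit3, a transcription factor induced downstream of eIF2 phosphorylation, was lower by both of its probes, at -0.17 and -0.19 (adjusted p = 0.0061 and 0.0011), but its chip 3 differences were -0.02 and 0.00. On chip 3, 3 probes of the list were higher (Eef1a2, Impact and Pabpc1) and 2 lower (Eef1b2 by 1 of 3 probes, and Akt1s1). Together these were 9.8% of the probes of the list, beside 16.8% of all tested probes.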

How the data were processed

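The files held 1 bead summary table without normalization. Per the file headers, the deposited intensities average the beads of each probe on a linear scale, with no background step stated. The table also carries detection p-values, which the authors deposited for each array, and, as further deposited values, bead standard errors and bead numbers (7 to 161). The Methods name lumi and limma, with variance stabilization and quantile normalization. All 128 columns were matched to mice by their labels. A genome build for the probes is not given in the sources used here.

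A variance-stabilizing transform was fitted to the signals and their bead standard errors, put on a log2 scale and followed by quantile normalization. It understates differences of dim probes. Ethanol-treated mice and controls were compared in R 4.3.3 by limma 3.58.1 with no covariate, on the 10187 probes detected (p-value under 0.01) in 24 or more arrays, with Benjamini-Hochberg adjustment over all of these. Called means an FDR below 1%, on chip 3 below 10%. Intervals are limma's 95% intervals, unadjusted. The same procedure compared chips 1 and 2 with chip 4, the control groups, chip 1 with chip 2, even with odd positions (chip as a block), and the effect on chip 3 with that on the other chips. The fits were also tested on simulated data that held no effect of chip or position. That test therefore cannot tell treatment apart from either. The replicates are separate mice, and the number of arrays limits the precision.

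The Eif genes, their roles, the list of other translation genes and the marker lists were chosen with earlier results of these data known. Values by group are given for genes called over all arrays or on chip 3, genes whose effect differs between the chips, the 5 largest increases and decreases, Eif4g2, Eif4e, Eif4ebp2 and genes whose probes disagree in sign. Eif2s1 was also chosen, but its probe did not pass the detection filter. Tested by limma without the filter, it gave 0.03 over all arrays (adjusted p = 0.55). Symbols were updated through RefSeq's gene table, with 61 probes matched by Entrez ID, 5 by accession and 3 by symbol. As alternatives, plain log2 signals, normexp background (offset 16), median scaling, no detection filter, a filter over all arrays, a fixed or random chip block, position, array weights and an FDR of 10% with a 1.1-fold change were tried, and control mouse 66 or each mouse of chip 3 was left out. Those for the comparison of the effects and of the controls were added after seeing the data. Figures were drawn in Python 3.11.15 with matplotlib 3.10.9.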

Additional observations from a re-analysis of the deposited data

Results flagged for a closer look

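The effect on chip 3 differed from that on the other chips for 2 Eif probes, by limma at an FDR below 1%. For Eif4g2 the difference between the effects was -0.77, and for the Eif3i probe from base 1024 it was 0.39. In both, the controls of chip 3 and chip 4 also differed, by 0.85 for Eif4g2 and by -0.34 for Eif3i. Both control groups were untreated, so treatment does not vary in that comparison. Chip does, and the chip 3 controls were all at even positions. The same control arrays also enter the difference between the effects, where the part of chip, of position and of treatment cannot be told apart.

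Among 29 named probes, 87 groups of 4 to 8 mice were examined for a mouse far from the others, and 3 were found, where about 1 in 20 groups would be found by chance. Ethanol-treated mouse 47 was the lowest of the chip 3 ethanol group for Eif2b2, at 8.95 with the nearest mouse at 9.01, a gap of 0.842 of the group's range. Control mouse 52 was the highest chip 3 control for Eif6, at 10.39 with the next at 10.25 (0.876 of the range). Ethanol-treated mouse 50 was the highest of its group for the Eif3eip probe from base 1528, at 10.65 with the next at 10.37 (0.910 of the range).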

How the results depend on the processing

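Over all arrays 5 Eif probes were called. The count was 0 with median scaling, with chip as a fixed block, with chip as a random block and with chip as a fixed block and position (with 9, 10, 13 and 4 probes at an unadjusted p below 0.05 by limma), 3 with all probes of the array, 3 without control mouse 66, and between 4 and 7 under the other 6 alternatives. Under the settings named, in that order, 1.49%, 0.216%, 0.805%, 0.0196%, 2.64% and 5.87% of all probes passed, beside 8.22% in the main fit. Under the other 6 alternatives between 7.53% and 15.7% of all probes passed. The count of 7 and the 15.7% both came from the looser threshold, an FDR of 10% with a 1.1-fold change. Eif4g2 turned to -0.12 with chip as a fixed block, and Eif5 from base 3616 turned to -0.10 with chip and position (adjusted p = 0.76). The cause was not tested. On chip 3 the count of 7 became 4 with normexp background and lay between 3 and 8 when 1 mouse was left out. It was 3 without ethanol-treated mouse 47, control mouse 54 or control mouse 55, and 4 without ethanol-treated mouse 46. Of all probes 16.8% passed on chip 3, 12.5% with normexp background, and between 9.88% and 17.2% with 1 mouse left out. Between chips 1 and 2 and chip 4 the count of 8 became 4 with median scaling, where the share of all probes went from 11.8% to 5.96%. With median scaling the difference of the effects kept 1 of 2 probes (Eif4g2), as did the comparison of the controls. Of all probes 1.13% and 0.0491% passed there, beside 3.29% and 4.14% in the main fits. The median of all probes in the difference of the effects moved to -0.12, where Eif4g2 was at -0.94. Even against odd positions gave 0 in place of 4 probes with normexp background and with median scaling, where 2.37% and 0% of all probes passed. Sign changes of probes that passed in neither setting are not listed. No paired analysis was possible because the groups share no replicate numbers and every array is a separate mouse. Dim probes such as Eif4e and Eif4ebp2 lie near the detection limit.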
